A study of Mus musculus with 3 samples.

Results

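The 40 genes described here encode proteins that repair DNA or signal its damage, and they were taken from single-cell RNA sequencing of mouse liver. They were chosen by gene symbol out of 31253 listed genes. The symbols of 39 genes matched directly, and the histone gene H2afx was matched by its gene identifier, because the files list it under the symbol H2ax. Each gene was placed in 1 of 7 groups by its best known role: 8 genes of end joining, 9 of homologous recombination and end resection, 7 of base excision and single-strand break repair, 6 of nucleotide excision, 2 translesion polymerases, 2 Fanconi genes and 6 of damage signalling. The livers gave 3 libraries, 1 for each group of mice. FL_control is labelled as a GsdmdFL/FL mouse, which carries floxed copies of the pore-forming gene gasdermin D, with the treatment Ctrl and a genotype tag of WT. FL_IR is labelled GsdmdFL/FL with the treatment IR and the same tag. dHep_IR is labelled Gsdmd∆Hep with the treatment IR and the genotype tag gsdmd-ko, so its title names a deletion in hepatocytes and its tag names a knockout. By the design text, the irradiated mice received 30 Gy and their livers were taken 7 days later. The floxed exons, the driver of the deletion, the part of the body exposed, the age of the mice and the number of animals in a library are not given in the sources used here.

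Ionizing radiation breaks DNA strands and damages bases. Double-strand breaks are sensed by the Mre11, Rad50 and Nbn complex and by the kinase Atm, marked by phosphorylated histone H2AX, and then joined end to end or copied from a sister chromatid by homologous recombination, which is largely limited to cells that replicate their DNA. Damaged bases and single-strand breaks are handled by base excision repair, bulky lesions by nucleotide excision repair, and lesions met during replication by translesion polymerases or the Fanconi pathway. Most liver cells do not divide at rest, and liver endothelial cells, macrophages, neutrophils and lymphocytes differ widely in how much of this machinery they transcribe.

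The genes at the ends of the endothelial range described below were Chek2, with the largest lower value in both irradiated libraries, and Ercc5 and Polk, with the largest higher values. Their promoters are shown to place these transcripts on the genome and to compare motifs linked to the cell cycle. Each sequence is the 250 bases before a transcription start in the RefSeq promoter table (build GRCm38.p6), 5′ to 3′ on the strand of the gene, with motif matches in capitals. The Chek2 window is chr5:110839733-110839982 on the plus strand, the Ercc5 window chr1:44147494-44147743 on the plus strand and the Polk window chr13:96542580-96542829 on the minus strand. The Chek2 window runs into the annotated gene span, which starts at base 110839800, and the Ercc5 window lies inside a span that starts at base 44146948.
Chek2: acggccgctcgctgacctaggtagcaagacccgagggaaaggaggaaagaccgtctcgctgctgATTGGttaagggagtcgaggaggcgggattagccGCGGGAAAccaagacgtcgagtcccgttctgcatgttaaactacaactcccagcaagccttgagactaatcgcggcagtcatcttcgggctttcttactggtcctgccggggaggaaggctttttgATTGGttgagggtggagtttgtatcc
Ercc5: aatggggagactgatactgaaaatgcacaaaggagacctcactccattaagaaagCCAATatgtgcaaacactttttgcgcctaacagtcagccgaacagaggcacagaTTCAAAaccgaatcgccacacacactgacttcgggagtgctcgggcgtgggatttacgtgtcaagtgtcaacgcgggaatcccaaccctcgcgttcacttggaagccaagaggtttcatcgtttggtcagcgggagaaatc
Polk: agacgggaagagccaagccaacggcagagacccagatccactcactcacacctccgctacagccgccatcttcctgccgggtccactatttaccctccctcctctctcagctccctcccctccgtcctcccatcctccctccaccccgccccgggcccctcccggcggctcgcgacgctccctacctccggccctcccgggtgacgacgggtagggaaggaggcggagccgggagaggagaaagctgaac
In Chek2 the capitals mark 1 E2F match, 152 bases before the start, and 2 CCAAT matches on the reverse strand, 186 and 26 bases before it. In Ercc5 they mark a CCAAT 195 bases and a TTTGAA on the reverse strand 141 bases before the start, and Polk held none of the motifs searched. RefSeq windows were found for 31 of the 40 genes. On either strand, E2F (TTTCCCGC, TTTGGCGC, TTTCGCGC, TTTGCCGC, TTCCCGCC or TTGGCGCC, some of which can overlap each other) was in 5 of these 31 windows, 16.1%, against 3.82% of the windows of 27025 genes. Those 5 were Chek2, Xrcc6, Brca2, Rad51c and Mdc1. CCAAT, the NF-Y motif, was in 12 of 31, 38.7%, against 34.5%. TTTGAA, the cell cycle homology region, was in 1 of 31, 3.23%, against 16.3%, and the full p53 consensus site in 0 of 31 against 0.0444%. A match is a run of letters and not a measured binding site.

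The libraries held 7393 to 8214 barcodes and 52858425 to 78694038 unique molecular identifiers (UMIs, each standing for 1 captured RNA molecule), and 6458, 6545 and 7261 cells were kept in FL_control, FL_IR and dHep_IR. Levels are UMIs summed over the cells of a class in a library and divided by that class's total, and scaled to a class total of 1000000 (CPM). Since each group is 1 library, groups could not be tested against each other, and each interval below is an exact 95% interval that covers counting error only. Gsdmd itself stood at 36.2, 7.26 and 36.8 CPM over all cells of FL_control, FL_IR and dHep_IR, so FL_IR, labelled without a deletion, was lowest. It was lowest in each of the 5 classes compared below, for example at 6.32 CPM in neutrophil-like cells beside 78.5 in FL_control and 37.2 in dHep_IR. The level of FL_IR was low although its label names no deletion, and the reason was not tested. The level of dHep_IR does not bear on a deletion in hepatocytes. Only 8 hepatocyte-like cells with 1 Gsdmd UMI were kept from dHep_IR, and a 3′ count need not read the deleted part. FL_IR and dHep_IR therefore stand for the libraries so labelled. Cell classes were named from marker genes, and those with at least 50 cells in every library compared here were endothelial-like (2509, 2508 and 2847 cells), Kupffer-like (551, 452 and 364), monocyte-like (255, 475 and 1166), neutrophil-like (459, 2342 and 1850) and T-like (595, 111 and 208). Cells of FL_control and of the irradiated libraries lay largely in different clusters of a class: clusters 0 and 15 against 17, 18, 19 and 22 for endothelial-like, 13 against 4 for Kupffer-like and 3 against 23, 24 and 25 for neutrophil-like cells. Monocyte-like cells lay in clusters 9 and 11, with 255 and 0 cells of FL_control, 35 and 440 of FL_IR and 565 and 601 of dHep_IR, and T-like cells in clusters 7 and 12, with 165 and 430, 0 and 111, and 1 and 207. Cholangiocyte-like cells, with 48 cells in FL_IR, were under the minimum of 50 cells for any comparison with FL_IR, and 23 of 55, 5 of 48 and 28 of 86 of them carried a barcode found in another library too. RNA of the neutrophil genes S100a8 and S100a9 was higher in irradiated cells of other types, for example 43.5 CPM in FL_control and 1059 and 1160.2 CPM in FL_IR and dHep_IR endothelial-like cells, and its part in the values below was not tested.

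In the unirradiated liver the repair genes differed in level between cell classes. Xpc, which recognizes distorted DNA in nucleotide excision repair, was highest in endothelial-like cells of FL_control, at 104 CPM against 36.9 CPM in neutrophil-like cells, the next class. Polk, a translesion polymerase that can extend past bulky adducts, was likewise highest there, at 41.9 CPM, with 18 CPM in cholangiocyte-like cells, the next class, and 2.38 CPM in neutrophil-like cells. Chek2, a kinase activated by Atm, stood at 10.1 CPM there and at 5.77 CPM in Kupffer-like cells, the next class. T-like cells had the highest level of Rif1, which protects broken ends from resection, at 81.5 CPM, of the replication ligase gene Lig1 at 30.7 CPM and of H2afx at 61.0 CPM. For Lig1 the interval overlapped that of the next class, NK or ILC1-like cells, at 23.0 CPM. Parp1, the sensor of single-strand breaks, stood apart in B-like cells at 173 CPM, with 60.9 CPM in plasmacytoid dendritic-like and 37.4 CPM in T-like cells. Neutrophil-like cells held the lowest level, ties included, of 21 of the 40 genes among 10 classes of FL_control. Parp1 was among them at 1.78 CPM, on 3 UMIs, and no Lig1 UMI was read in these cells. The share of all genes that are lowest in this class was not computed, so the count is not a result about the repair genes.

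Irradiation was compared with its absence in endothelial-like cells first, since they held the most UMIs of these genes in every library. In FL_IR, 37 of the 40 genes had at least 20 UMIs over both libraries, the minimum used for a ratio. Of these, 9 were higher than in FL_control and 28 lower. A ratio of at least 2 was found for 2 genes, where 9.56% of all 12493 genes past the minimum were that much higher, and a ratio of at most 0.5 for 7 genes, where 16.1% of all genes were that much lower. Their median log2 ratio was -0.44, beside -0.09 over all genes. By group, the median was -0.52 for end joining, -0.41 for homologous recombination, -0.25 for base excision, -0.58 for signalling and 0.66 for nucleotide excision. Without the cells that held at least 3 UMIs of cell cycle genes, the median over the repair genes was -0.30. Those cells, called cycling cells below, were 1061 of 2509, 669 of 2508 and 715 of 2847 in FL_control, FL_IR and dHep_IR. The name stands for this rule alone, and whether these cells divide was not tested. The rule takes no account of depth, and the median UMIs per cell of this class were 8428, 6082 and 5909. Their removal is therefore not a control for the cell cycle alone.

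Among the signalling genes, Chek2 was read at 10.1, 1.21 and 1.94 CPM (217, 20 and 35 UMIs) in FL_control, FL_IR and dHep_IR. Both irradiated libraries were low and their intervals did not reach that of the control. The ratio was 8.36-fold lower (interval 5.28 to 14.0) in FL_IR and 5.19-fold lower (interval 3.62 to 7.64) in dHep_IR. Every endothelial-like cluster with at least 50 cells of an irradiated library lay between 0 and 3.55 CPM, and the main control cluster stood at 10.0 CPM. In cluster 1, which has the large-vessel gene Vwf among its leading genes and was filled by both kinds of liver, Chek2 was at 11.4 CPM in 102 control cells and had no UMI in 65 cells of FL_IR, with an exact upper bound of 6.98 CPM. Atm, the kinase upstream of Chek2, was at 13.5, 7.90 and 6.05 CPM (291, 131 and 109 UMIs), 1.71-fold lower (interval 1.39 to 2.12) in FL_IR and 2.23-fold lower (interval 1.79 to 2.81) in dHep_IR. Atr, the kinase that answers stalled replication, went the other way at 16.0, 21.6 and 19.6 CPM (345, 358 and 354 UMIs), 1.35-fold higher (interval 1.16 to 1.57) in FL_IR. Chek1, the partner kinase of Atr, had only 30, 9 and 19 UMIs. Its log2 ratio of -1.31 in FL_IR turned to 0.51 without cycling cells, when 4, 7 and 14 UMIs were left. Mdc1, which binds marked H2AX, and H2afx lay within 1.5-fold of the control, with -0.40 and -0.20 on the log2 scale in FL_IR.

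The genes that act on double-strand breaks were mostly lower in irradiated endothelial-like cells. Nbn, of the break-sensing complex, was at 25.5, 11.4 and 11.0 CPM (549, 189 and 199 UMIs) and thus 2.24-fold lower (interval 1.89 to 2.65) in FL_IR and 2.31-fold lower (interval 1.96 to 2.73) in dHep_IR. Its partners were lower by less, with log2 ratios of -0.75 for Mre11a and -0.30 for Rad50 in FL_IR. Of the end-joining genes, Xrcc6, which encodes the Ku70 subunit of the end-binding Ku dimer, was at 6.60, 2.71 and 2.05 CPM (142, 45 and 37 UMIs), 2.43-fold lower (interval 1.73 to 3.48) in FL_IR. Prkdc, the kinase that Ku recruits, was at 9.34, 4.64 and 3.88 CPM (201, 77 and 70 UMIs), 2.01-fold lower (interval 1.54 to 2.65). Control cells were high and both irradiated libraries low for each of these. Trp53bp1, which favours end joining over resection, was at a log2 ratio of -0.52 and -0.81 in FL_IR and dHep_IR. Xrcc5, the Ku80 partner, was hardly read in this class (9, 3 and 1 UMIs). Rbbp8, which starts end resection, was an exception at 35.2, 48.5 and 54.1 CPM (758, 804 and 974 UMIs), 1.38-fold higher (interval 1.25 to 1.52) in FL_IR and 1.54-fold higher (interval 1.39 to 1.69) in dHep_IR. Rif1, which opposes resection, was at log2 ratios of 0.20 and -0.03. Lig4 and Xrcc4, the ligase and its partner, were at -0.45 and -0.47 in FL_IR. Nhej1, Rad51c and Palb2 were at -0.80, -0.65 and -0.24 with intervals that included no difference, and Rad52, which can anneal single strands, was at -0.52. Brca2 stood at 4.78, 6.82 and 4.05 CPM (103, 113 and 73 UMIs), 1.42-fold higher (interval 1.08 to 1.88) in FL_IR, and Brca1, Fanca and Xrcc5 stayed under the minimum in FL_IR against FL_control.

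Nucleotide excision genes split in 2 directions in endothelial-like cells. Xpc was at 104, 42.0 and 48.4 CPM (2239, 696 and 872 UMIs), 2.48-fold lower (interval 2.27 to 2.70) in FL_IR and 2.15-fold lower (interval 1.99 to 2.33) in dHep_IR. Control cluster 1 already held less of it, 53.6 CPM against 109 in cluster 0. Ercc5, the endonuclease that cuts 3′ of the lesion, was at 19.0, 52.7 and 54.4 CPM (410, 874 and 980 UMIs), 2.77-fold higher (interval 2.46 to 3.12) in FL_IR and 2.86-fold higher (interval 2.54 to 3.21) in dHep_IR. Xpa, the scaffold that checks the lesion, was at 28.7, 54.9 and 58.1 CPM (618, 910 and 1047 UMIs), 1.91-fold higher (interval 1.72 to 2.12) and 2.02-fold higher (interval 1.83 to 2.24). Both irradiated libraries were high for Ercc5 and Xpa and close to each other. Ercc1, part of the endonuclease that cuts 5′ of the lesion, was at 18.2, 28.6 and 31.0 CPM (391, 474 and 559 UMIs), also above the control in both. Ddb1 and Ddb2 form the ultraviolet damage sensor. Ddb1 was at 130.4, 95.9 and 104 CPM (2807, 1590 and 1870 UMIs), lower in both. Ddb2 was at 3.53, 5.61 and 3.50 CPM (76, 93 and 63 UMIs), 1.59-fold higher (interval 1.16 to 2.18) in FL_IR. In dHep_IR it was level with the control.

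The 2 translesion polymerases also parted. Polk was at 41.9, 103 and 96.0 CPM (903, 1713 and 1729 UMIs) in endothelial-like cells, 2.46-fold higher (interval 2.27 to 2.67) in FL_IR and 2.29-fold higher (interval 2.11 to 2.48) in dHep_IR. Each irradiated endothelial-like cluster with at least 50 cells was at 68.1 to 115 CPM, above the 37.4 and 42.6 CPM of control clusters 1 and 0. Polh, which copies past ultraviolet lesions, was at 7.53, 5.37 and 4.33 CPM (162, 89 and 78 UMIs), lower in both. In base excision, Parp1 was at 36.9, 17.9 and 16.5 CPM (795, 297 and 297 UMIs), 2.06-fold lower (interval 1.8 to 2.36) in FL_IR and 2.24-fold lower (interval 1.96 to 2.57) in dHep_IR. Lig3, Apex1, Lig1 and Ogg1, a ligase, an abasic site nuclease, the replication ligase and an oxidized guanine glycosylase, had FL_IR log2 ratios of -0.09, -0.09, -0.15 and -0.25, each with an interval that included no difference. The scaffold gene Xrcc1 was at -0.33, and Ung and Fancd2 had only 23, 9 and 16 UMIs and 14, 6 and 3 UMIs. Beside these values, all 8 genes of the p53 feedback and arrest list were at least 2-fold higher in both irradiated libraries, with a summed level of 373, 3239 and 3040.1 CPM. The S phase list summed to 427, 349.7 and 351 CPM and the G2/M list to 19.8, 9.95 and 10.9 CPM. Their part in the repair gene values was not tested. Removal of cycling cells, which depends on depth too, left Chek2, Xpc, Polk and Ercc5 at log2 ratios of -2.94, -1.24, 1.39 and 1.40 in FL_IR.

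**Figure D1:**
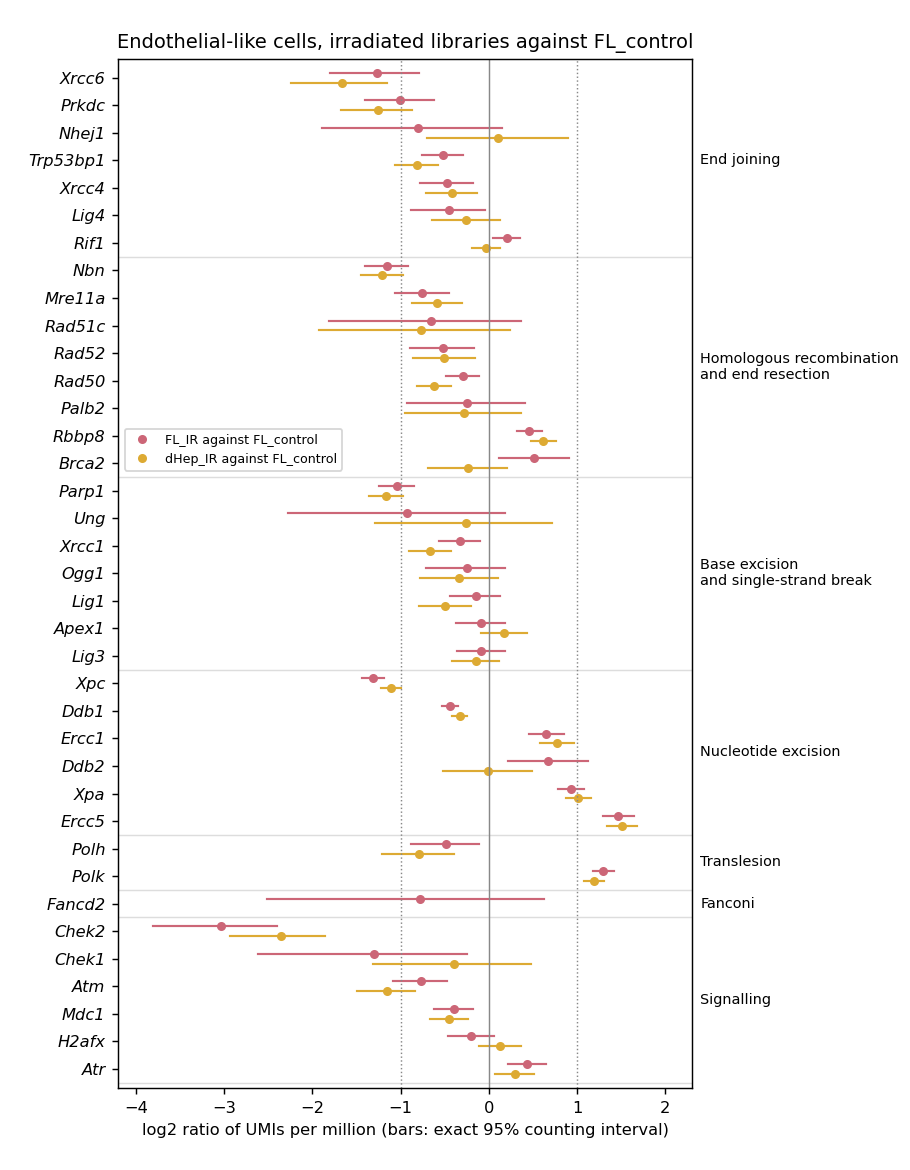
The log2 ratio of each repair gene in endothelial-like cells of FL_IR and dHep_IR against FL_control, grouped by repair role, with exact 95% counting intervals as bars and dotted lines at 2-fold. Points of the libraries lie close together for most genes, with Chek2 farthest to the left at -3.03 and -2.36, and Ercc5 at 1.47 and 1.51 and Polk at 1.3 and 1.19 farthest to the right; genes under 20 UMIs over the libraries compared are not drawn.

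In Kupffer-like cells, named for the resident liver macrophages, Ercc5 and Polk were again the highest genes in FL_IR. Of 34 genes past the minimum, 2 were at least 2-fold higher (6.79% of all genes) and 6 at least 2-fold lower (8.19% of all genes), with a median of -0.17 against 0.00 for all genes. Ercc5 was at 8.48, 23.0 and 10.9 CPM (47, 72 and 37 UMIs), 2.72-fold higher (interval 1.86 to 4.01) in FL_IR. Polk was at 6.13, 14.4 and 7.96 CPM (34, 45 and 27 UMIs), 2.35-fold higher (interval 1.47 to 3.78). For both, FL_IR was high, and the intervals of dHep_IR against the control included no difference. Lower in both irradiated libraries were Lig1 at 13.4, 5.12 and 2.95 CPM (74, 16 and 10 UMIs), 2.61-fold lower (interval 1.5 to 4.80) in FL_IR, and Trp53bp1 at 11.9, 5.12 and 2.65 CPM (66, 16 and 9 UMIs), 2.33-fold lower (interval 1.33 to 4.30). Xrcc6, Parp1 and H2afx were lower in FL_IR by 2.18, 2.04 and 2.03 times, and Polh by 2.4 times with an interval that included no difference. Rbbp8, the gene of its group with the most UMIs here, was at 69.5, 44.8 and 43.0 CPM (385, 140 and 146 UMIs), 1.55-fold lower (interval 1.27 to 1.90) in FL_IR. That is opposite to its endothelial-like direction. Xpc was at 19.3, 19.2 and 9.43 CPM (107, 60 and 32 UMIs), level in FL_IR and low in dHep_IR. The G2/M list was at 72.2 CPM in FL_control and 13.8 CPM in FL_IR, and its part in these values was not tested. Without cycling cells the Lig1 log2 ratio moved from -1.35 to -0.70.

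In monocyte-like cells, 28 genes passed the minimum and none was at least 2-fold higher in FL_IR (7.14% of all genes), while 9 were at least 2-fold lower (17.3% of all genes). The median was -0.57 beside -0.12 for all genes. Lig1 was at 10.2, 0 and 2.89 CPM (27, 0 and 50 UMIs), at least 19.0-fold lower in FL_IR than in the control, taking 3 UMIs as the limit that a count of 0 allows. Apex1 was at 26.1, 5.56 and 21.2 CPM (69, 31 and 367 UMIs), 4.70-fold lower (interval 3.03 to 7.42) in FL_IR. Fanca, of the Fanconi core complex, was at 7.94, 1.08 and 1.62 CPM (21, 6 and 28 UMIs), 7.38-fold lower (interval 2.88 to 22.4). Atm was at 9.46, 2.69 and 3.46 CPM (25, 15 and 60 UMIs), 3.52-fold lower (interval 1.78 to 7.17), and Ogg1 at 6.81, 1.97 and 2.48 CPM (18, 11 and 43 UMIs), 3.45-fold lower (interval 1.54 to 8.09). The control was high for all of these, and dHep_IR was low for Fanca, Atm and Ogg1 but not for Apex1. The class was not uniform. At a finer clustering, 111 of its 255 control cells, 3 of 475 FL_IR cells and 65 of 1166 dHep_IR cells were conventional dendritic-like. Without them, Lig1 UMIs were 2, 0 and 44, so most Lig1 of the control lay in those cells. The Ogg1 log2 ratio then moved from -1.76 to -0.31, Apex1 from -2.22 to -1.38, Rad52 from -1.48 to -0.55 and Trp53bp1 from -1.46 to -0.82. Fanca, Atm, Xrcc6 and Nbn kept at least 2-fold lower values, at -3.18, -1.59, -1.25 and -1.15. They rest on 14, 11, 8 and 14 UMIs in FL_control and 6, 15, 14 and 26 in FL_IR. At the finer clustering, a monocyte-like cluster with Cx3cr1 and Ace among its leading genes held 118, 0 and 0 cells of FL_control, FL_IR and dHep_IR. The libraries thus differ in the kinds of monocyte-like cell they hold, and the part of this in these values was not tested.

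Neutrophil-like cells of FL_control held few UMIs of these genes, with 459 cells and a class total of 1681544 UMIs. In FL_IR, 22 genes passed the minimum, 4 were at least 2-fold higher (8.5% of all genes) and 9 at least 2-fold lower (34.0% of all genes), with a median of -0.51 beside -0.58 for all genes. The ratio scale depends on the normalization here, because trimmed-mean (TMM) factors moved every ratio up by 0.85 on the log2 scale and gave 5 genes at least 2-fold higher (23.2% of all genes) and 2 at least 2-fold lower (15.2%). Xpa was at 25, 52.3 and 49.4 CPM (42, 1307 and 1236 UMIs), 2.09-fold higher (interval 1.54 to 2.92) in FL_IR. Polk was at 2.38, 7.56 and 10.6 CPM (4, 189 and 265 UMIs), 3.18-fold higher (interval 1.22 to 11.8), and Lig3 at 2.97, 7.12 and 7.03 CPM (5, 178 and 176 UMIs), 2.39-fold higher (interval 1.01 to 7.46). All 3 genes were low in the control, on at most 42 UMIs. Nhej1, which bridges DNA ends, was at 1.78, 5.04 and 6.83 CPM (3, 126 and 171 UMIs), 2.82-fold higher (interval 0.944 to 13.9) in FL_IR and 3.83-fold higher (interval 1.29 to 18.7) in dHep_IR. Lower were Rif1 at 6.54, 0.80 and 1.44 CPM (11, 20 and 36 UMIs), 8.18-fold lower (interval 3.54 to 17.9) in FL_IR, Atr at 4.16, 1.2 and 1.28 CPM (7, 30 and 32 UMIs), Rad52 at 4.76, 1.56 and 1.40 CPM (8, 39 and 35 UMIs) and Ercc1 at 5.95, 2.60 and 2.4 CPM (10, 65 and 60 UMIs). With TMM factors Rif1 stood at -2.21, Atr at -1.02, Rad52 at -0.83 and Ercc1 at -0.41 on the log2 scale. Xpc was at 36.9, 36.1 and 29.6 CPM (62, 904 and 741 UMIs), with an interval in FL_IR that included no difference. Ung, the uracil glycosylase gene, had 0 UMIs in all 3 libraries.

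T-like cells numbered 111 in FL_IR, and the intervals of their ratios are wide. Of 31 genes past the minimum, 1 was at least 2-fold higher in FL_IR (4.4% of all genes) and 5 at least 2-fold lower (9.08% of all genes), and the median was -0.43 beside -0.02. Nbn was the higher one, at 7.63, 20.6 and 8.77 CPM (32, 15 and 14 UMIs), 2.71-fold higher (interval 1.36 to 5.15) in FL_IR, with a ratio of dHep_IR to the control of 1.15, whose interval included no difference. Rad50, its partner, was at 27.9, 46.8 and 31.3 CPM (117, 34 and 50 UMIs), 1.68-fold higher (interval 1.11 to 2.48). H2afx was at 61.0, 27.5 and 123 CPM (256, 20 and 197 UMIs), 2.22-fold lower (interval 1.41 to 3.69) in FL_IR and 2.02-fold higher (interval 1.67 to 2.45) in dHep_IR. Lig1 was at 30.7, 11.0 and 39.5 CPM (129, 8 and 63 UMIs), 2.79-fold lower (interval 1.38 to 6.61) in FL_IR. For both genes FL_IR was low and dHep_IR highest. Prkdc was at 15.5, 5.50 and 5.64 CPM (65, 4 and 9 UMIs), low in both irradiated libraries. Rif1, the most abundant end-joining gene here, was at 81.5, 50.9 and 53.9 CPM (342, 37 and 86 UMIs), 1.60-fold lower (interval 1.14 to 2.31).

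**Figure D2:**
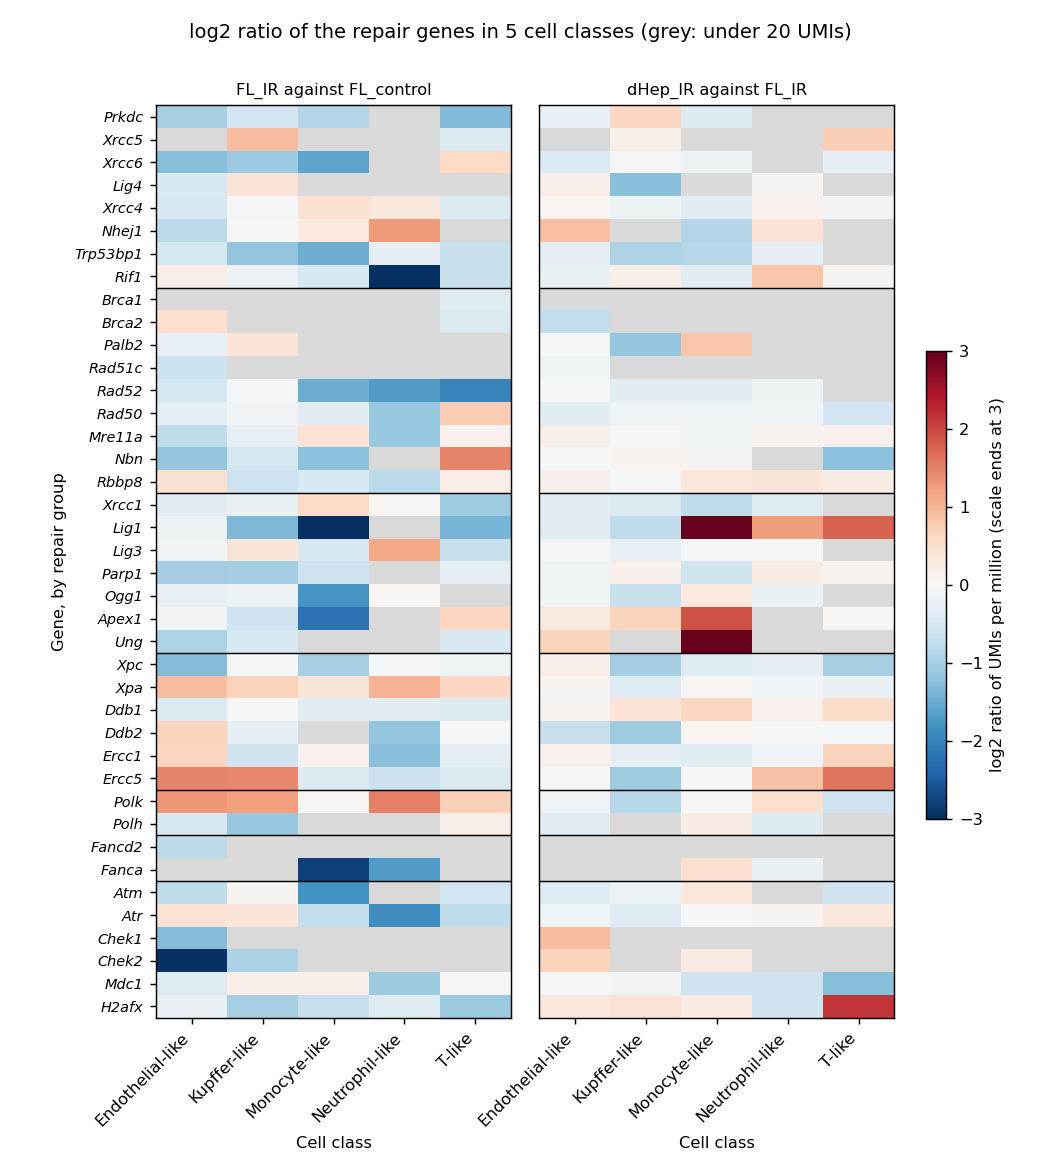
The log2 ratio of each of the 40 repair genes (rows, by repair group) in 5 cell classes (columns), for FL_IR against FL_control on the left and dHep_IR against FL_IR on the right, with blue lower, red higher and grey under 20 UMIs. On the left Xpa and Polk are above 0 in all 5 classes and the deepest blue cells are Chek2 (endothelial-like), Lig1 and Fanca (monocyte-like) and Rif1 (neutrophil-like); on the right no cell of the endothelial-like column reaches 2-fold. The colour scale ends at 3, and the darkest monocyte-like cells of Lig1 and Ung rest on a count of 0 in FL_IR.

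Set side by side over the 5 classes, Xpa and Polk were higher in FL_IR than in FL_control in 5 of 5 classes, with intervals that excluded no difference in 5 and 3 of them. The lowest of these values were 0.35 for Xpa and 0.03 for Polk, both in monocyte-like cells. Without the dendritic-like cells Xpa was at -0.000945 and Polk at -0.52. Lower in 5 of 5 classes were H2afx, Rad52 and Trp53bp1, with intervals that excluded no difference in 3 classes each, Xpc with 2 and Ddb1 with 1. Lower in 4 of 4 classes measured were Parp1 and Lig1, with 3 each, and Prkdc, with 2. All classes come from the same FL_control and FL_IR libraries. The share of all genes with the same direction in every class was not computed. These counts of classes are therefore not results about the repair genes. Without cycling cells, Lig1 was higher in FL_IR in endothelial-like cells, at 11.0 CPM against 8.99 CPM. It stayed lower in Kupffer-like cells, at 5.38 CPM against 8.93 CPM. H2afx was also higher in FL_IR in endothelial-like cells without cycling cells, at 13.01 CPM against 11.91 CPM. With all cells, Kupffer-like Xpc and Ddb1 were nearly level with the control. Without cycling cells they were higher in FL_IR, at 19.87 against 17.32 CPM and 64.15 against 60.62 CPM. On few UMIs, Kupffer-like Rad52 and neutrophil-like Trp53bp1 turned higher too, at 5.38 against 4.33 CPM and 2.72 against 2.41 CPM. Without dendritic-like cells, monocyte-like Lig1 rested on 0 UMIs in FL_IR against 2 in FL_control. In neutrophil-like cells the TMM shift of 0.85 was larger than the differences of H2afx (-0.38), Trp53bp1 (-0.28), Xpc (-0.04) and Ddb1 (-0.34), so with TMM factors, which move all genes of a class alike, these 4 values were above 0. Rbbp8 and Nbn did not share a direction between classes. In endothelial-like cells Rbbp8 was at 0.46 and Nbn at -1.16, while Rbbp8 was at -0.63 in Kupffer-like cells and Nbn at 1.46 in T-like cells. The difference between classes was not tested.

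**Figure D3:**
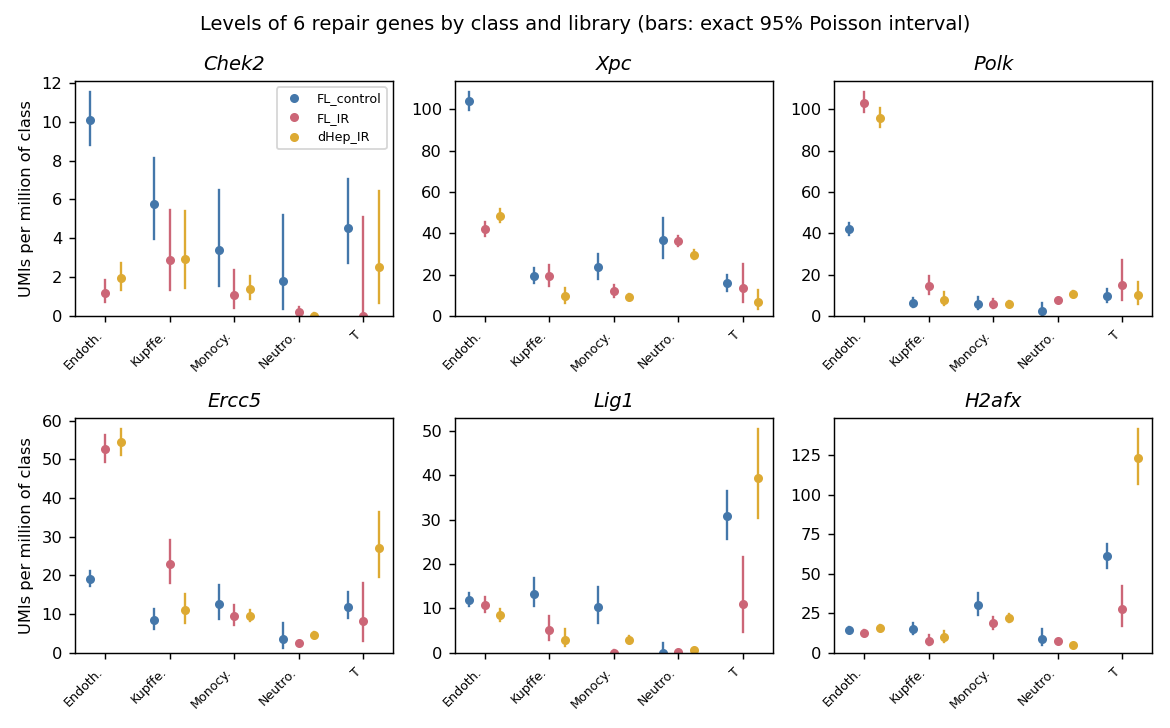
Levels in CPM of Chek2, Xpc, Polk, Ercc5, Lig1 and H2afx in 5 cell classes of the 3 libraries, with exact 95% Poisson intervals as bars and 1 point per library. Endothelial-like cells stand highest for Chek2 and Xpc in FL_control and for Polk and Ercc5 in both irradiated libraries, and T-like cells of dHep_IR stand highest for H2afx and Lig1, at 123 and 39.5 CPM.

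Set against FL_control, which again serves both irradiated libraries, dHep_IR gave counts of the same order. In endothelial-like cells 3 of 36 genes were at least 2-fold higher (8.39% of all genes) and 7 at least 2-fold lower (18.5%). The higher ones were Ercc5, Polk and Xpa, and the lower ones Chek2, Xrcc6, Prkdc, Nbn, Parp1, Atm and Xpc. Kupffer-like cells had 1 of 34 higher (6.46%) and 6 lower (13.4%), with Lig1 4.53-fold lower (interval 2.33 to 9.83) and Trp53bp1 4.49-fold lower (interval 2.23 to 10.2). Monocyte-like cells had none of 33 higher (6.7%) and 12 lower (17.8%), among them Chek2 at 3.40, 1.08 and 1.38 CPM (9, 6 and 24 UMIs). Neutrophil-like cells had 3 of 22 higher (9.89%) and 9 lower (38.0%), led by Polk, 4.45-fold higher (interval 1.72 to 16.4), and Rif1, 4.55-fold lower (interval 2.09 to 9.14). TMM factors moved every ratio of this comparison up by 0.97 on the log2 scale and gave 6 genes at least 2-fold higher (27.4% of all genes) and 1 at least 2-fold lower (15.7%). In T-like cells 4 of 34 were higher (4.62%) and 4 lower (7.55%). Chek1 was at 3.81, 1.38 and 8.77 CPM (16, 1 and 14 UMIs) in them and Ercc5 at 11.9, 8.26 and 26.9 CPM (50, 6 and 43 UMIs), and the genes at least 2-fold lower were Prkdc, Mdc1, Atm and Xpc. Without cells that held at least 3 UMIs of cell cycle genes, T-like cells were left with 1, 0 and 2 Chek1 UMIs, and H2afx was at 28.2 CPM in FL_control and 29.4 CPM in dHep_IR. With 1 library a group, these values compare libraries.

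The libraries labelled dHep_IR and FL_IR, both irradiated, were then set against each other. This comparison shares FL_IR with the first. FL_IR was lowest in Gsdmd although its label names no deletion, so no direction here is tied to the genotype. In endothelial-like cells none of 36 repair genes reached 2-fold in either direction, where 1.53% of all genes were that much higher and 2.11% that much lower. With 1 library each, no test stands behind this count. The median was -0.05 beside -0.08 for all genes, and the intervals of 13 genes excluded no difference. Of these, Brca2 was 1.68-fold lower (interval 1.24 to 2.29) and Ddb2 1.60-fold lower (interval 1.15 to 2.25) in dHep_IR. No other of the 13 was farther apart. The share of all genes with an interval that excluded no difference was not computed, so the 13 are not a result about the repair genes. In neutrophil-like cells 1 of 26 genes reached 2-fold higher (4.17% of all genes) and none 2-fold lower (2.97%). That gene was Lig1, with 6 and 15 UMIs and an interval that included no difference. Ercc5 was 1.83-fold higher (interval 1.33 to 2.55), Polk 1.40-fold higher (interval 1.16 to 1.70) and H2afx 1.51-fold lower (interval 1.19 to 1.93). Neutrophil-like clusters 23, 24 and 25 held 774, 937 and 631 cells of FL_IR and 276, 567 and 1006 of dHep_IR. Endothelial-like clusters 18 and 19 held 550 and 1189 cells of FL_IR and 1609 and 237 of dHep_IR. The part of these cluster mixes in the values was not tested.

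Kupffer-like cells of dHep_IR had 5 of 30 genes at least 2-fold lower than in FL_IR (6.27% of all genes) and none 2-fold higher (2.97%). Ercc5 was 2.11-fold lower (interval 1.40 to 3.23) and Xpc 2.03-fold lower (interval 1.3 to 3.23). Ddb2, Lig4 and Palb2 reached 2-fold with intervals that included no difference. Apex1 at 51.2, 33.9 and 54.2 CPM (284, 106 and 184 UMIs) and Ddb1 at 62.6, 62.1 and 82.5 CPM (347, 194 and 280 UMIs) were higher in dHep_IR than in FL_IR, by 1.60 and 1.33 times. Ercc5 was no longer 2-fold apart without cycling cells, when its log2 ratio of -1.07 became -0.59. In monocyte-like cells 3 of 33 genes were at least 2-fold higher in dHep_IR (7.4% of all genes) and none lower (3.42%). They were Lig1, Ung and Apex1, while Parp1 and Xrcc1 of the same repair group were 1.5-fold lower (interval 1.21 to 1.85) and 1.68-fold lower (interval 1.2 to 2.33). About equal shares of dHep_IR cells lay in clusters 9 and 11, and FL_IR cells lay mostly in cluster 11. Lig1 was at least 5.36-fold and Ung at least 2.15-fold higher than the limit of 3 UMIs in FL_IR, where both had 0 UMIs. Apex1 was 3.81-fold higher (interval 2.64 to 5.69), and remained at 1.83 on the log2 scale without cycling cells and at 1.81 without dendritic-like cells. Beside them, 9 of 11 G2/M genes past the minimum were at least 2-fold higher in dHep_IR, with a sum of 22.9 and 98.6 CPM, and S100a8 and S100a9 summed to 7982 and 21499 CPM in FL_IR and dHep_IR. Their part in the result was not tested.

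In T-like cells of dHep_IR, 3 of 22 genes were at least 2-fold higher (5.3% of all genes) and 3 at least 2-fold lower (3.29%) than in FL_IR. H2afx was 4.49-fold higher (interval 2.83 to 7.5), Lig1 3.59-fold higher (interval 1.71 to 8.67) and Ercc5 3.26-fold higher (interval 1.38 to 9.38). Nbn was 2.35-fold lower (interval 1.06 to 5.26), and Mdc1 and Xpc reached 2-fold with intervals that included no difference. H2afx and Lig1 moved beside the cell cycle lists, of which 8 of 14 S phase genes and 11 of 13 G2/M genes past the minimum were at least 2-fold higher in dHep_IR. The S phase list summed to 627, 388 and 773 CPM in FL_control, FL_IR and dHep_IR, and the G2/M list to 514, 322 and 845 CPM. Without the cells with at least 3 UMIs of such genes, 384, 77 and 123 T-like cells were left with 66, 9 and 20 H2afx UMIs, and the log2 ratio went from 2.13 to 0.47. Lig1 then had 16, 0 and 2 UMIs. Ercc5 kept a log2 ratio of 1.48 on 33, 4 and 19 UMIs.

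A separate cluster of 53 cells (33, 2 and 18 of FL_control, FL_IR and dHep_IR) was led by cell cycle genes and carried no class name. Its members were grouped by expression that includes these genes, so its levels are a description. The cluster held Fancd2, the clamp of the Fanconi pathway, at 16.2 CPM, 46.7-fold (interval 27.3 to 77.2) the level of all other kept cells. Brca1, a recombination mediator that needs replicated DNA, was at 45.6-fold (interval 31.4 to 65.2), Chek1 at 32.3-fold (interval 21.4 to 47.7), H2afx at 23.1-fold (interval 21.0 to 25.4), Brca2 at 15.2-fold (interval 11.1 to 20.2) and Lig1 at 11.4-fold (interval 9.23 to 13.8) that level. At the other end, Polk was at 0.429-fold (interval 0.258 to 0.670), Xpa at 0.518-fold (interval 0.354 to 0.731) and Xpc at 0.658-fold (interval 0.455 to 0.920). The pool mixes libraries whose levels differ. Each ratio of a single library below is still to the other kept cells of all 3 libraries together. It therefore also carries differences between libraries outside the cluster. Over all kept cells, Xpc was at 56.6 CPM in FL_control and 28.2 CPM in dHep_IR, and Fancd2 at 1.28 and 0.168 CPM. Fancd2 was at a ratio of 74.8 in FL_control and 5.46 in dHep_IR (20 and 1 UMIs), Brca1 at 69.2 in FL_control and 13.7 in dHep_IR (37 and 5 UMIs), Chek1 at 51.8 in FL_control and 7.56 in dHep_IR (30 and 3 UMIs) and Lig1 at 15.5 in FL_control and 6.01 in dHep_IR (83 and 22 UMIs). H2afx and Brca2 were similar in both, at 21.9 in FL_control and 26.7 in dHep_IR (269 and 225 UMIs) and 14.9 in FL_control and 17.2 in dHep_IR (29 and 23 UMIs). Xpc differed too, at 0.955 in FL_control and 0.249 in dHep_IR (28 and 5 UMIs). Polk was at 0.637 in FL_control and 0.116 in dHep_IR (16 and 2 UMIs). The Polk intervals, 0.364 to 1.03 and 0.0141 to 0.420, overlapped. Chek2 and Xrcc6, both lower in irradiated endothelial-like cells, were at 5.07-fold (interval 2.98 to 8.11) and 3.89-fold (interval 2.36 to 6.06) over the whole cluster. Chek2 was at 7.45 in FL_control and 2.17 in dHep_IR (15 and 3 UMIs). Its intervals there, 4.14 to 12.4 and 0.447 to 6.40, overlapped.

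**Figure D4:**
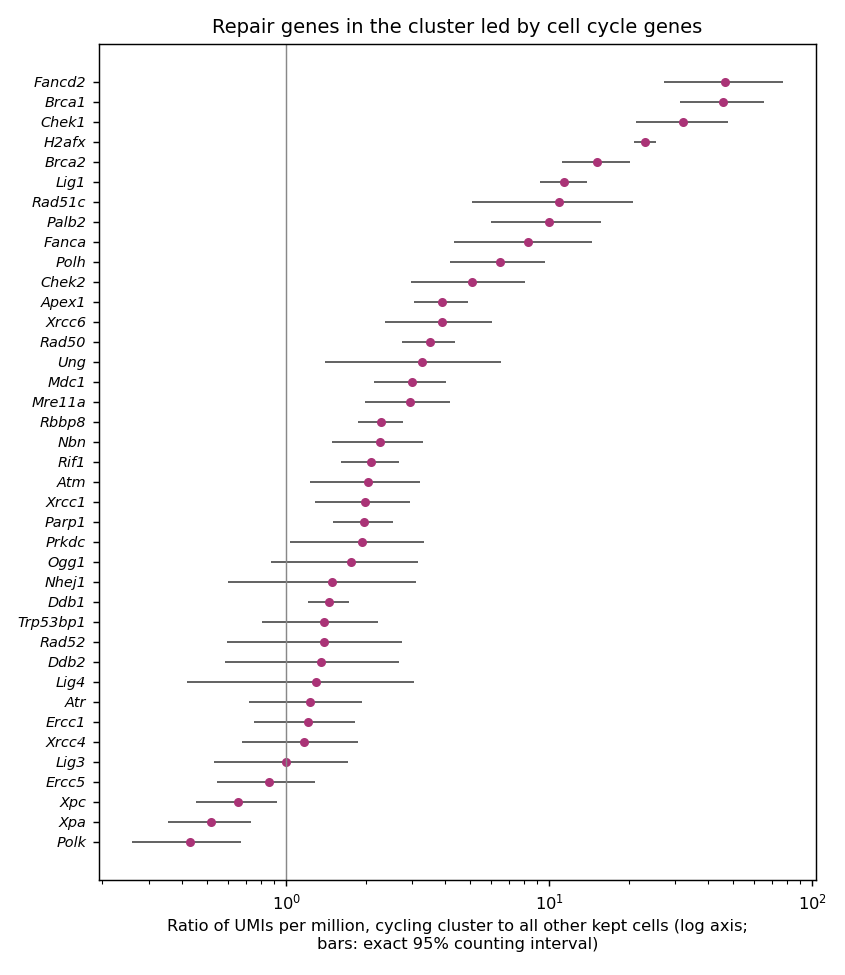
The ratio of each repair gene's level in the 53-cell cluster led by cell cycle genes to its level in all other kept cells, on a log axis, with exact 95% counting intervals, for genes with at least 3 UMIs in the cluster. Fancd2 at 46.7, Brca1 at 45.6 and Chek1 at 32.3 are at the top of this pool of 3 libraries, which holds 33 control cells, and Xpc at 0.66, Xpa at 0.52 and Polk at 0.43 are at the bottom. The order is that of the pool. In dHep_IR, H2afx was at 26.7 and Brca1 at 13.7. The Brca1 value rests on 5 UMIs with an interval of 4.35 to 32.8, so their order there is not settled.

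A list of 91 further repair genes was read the same way. In endothelial-like cells 82 passed the minimum, 7 were at least 2-fold higher and 10 at least 2-fold lower in FL_IR, which is 8.54% and 12.2% beside 9.56% and 16.1% of all genes, with a median of -0.08 beside -0.09 for all genes. Rad18, the ubiquitin ligase that calls translesion polymerases to a stalled fork, was at 6.41, 31.8 and 26.2 CPM (138, 528 and 472 UMIs), 4.97-fold higher (interval 4.11 to 6.04) in FL_IR and 4.09-fold higher (interval 3.37 to 4.98) in dHep_IR. Its log2 ratio in FL_IR was 1.40 in Kupffer-like, 1.61 in monocyte-like and 0.97 in T-like cells. Fancm, a translocase of the Fanconi pathway, and the helicase gene Blm were at 2.32, 7.66 and 6.16 CPM (50, 127 and 111 UMIs) and 2.37, 5.97 and 4.16 CPM (51, 99 and 75 UMIs). Fancb, Xrcc3 and Brip1 were the lowest, on 2 against 22, 4 against 21 and 5 against 25 UMIs. Kupffer-like cells had 8 higher and 4 lower of 66 (all genes 6.79% and 8.19%), with the glycosylase gene Neil1 lowest at 8.48, 1.60 and 0.295 CPM (47, 5 and 1 UMIs). Monocyte-like cells had 3 higher and 7 lower of 57 (all genes 7.14% and 17.3%). Neutrophil-like cells had 7 higher and 13 lower of 49 (all genes 8.5% and 34.0%). There the ubiquitin ligase gene Rnf8, which acts at marked breaks, was at 22.0, 115 and 167 CPM (37, 2869 and 4185 UMIs), 5.21-fold higher (interval 3.77 to 7.42) in FL_IR, and Dclre1c, the nuclease Artemis of end joining, was at 77.3, 10.7 and 7.07 CPM (130, 268 and 177 UMIs), 7.21-fold lower (interval 5.81 to 8.93). T-like cells had 2 higher and 10 lower of 72 (all genes 4.4% and 9.08%), among them Rrm2, the S phase subunit of the nucleotide reductase, at 18.8, 0 and 30.1 CPM (79, 0 and 48 UMIs). Against FL_IR, dHep_IR had none of 75 genes 2-fold apart in endothelial-like cells. The higher and lower counts were 1 and 5 of 56 for Kupffer-like cells (all genes 2.97% and 6.27%), 4 and 1 of 69 for monocyte-like cells (all genes 7.4% and 3.42%), 2 and 0 of 58 for neutrophil-like cells (all genes 4.17% and 2.97%), and 6 and 2 of 48 for T-like cells (all genes 5.3% and 3.29%).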

How the data were processed

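The authors deposited UMI counts per gene and cell barcode for each library, as whole numbers without normalization. Cell Ranger 6.1.1, CASAVA 1.8, Seurat 4.0.3 and the build mm10 are listed, without roles, in the submitters' processing notes. Libraries were 10x 3′ libraries, per the labels' protocols. Free RNA was not removed here. The annotation used for counting is not named in those notes.

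Cells with at least 500 UMIs, 250 genes and at most 25% mitochondrial UMIs were kept, and 2.42%, 3.47% and 3.85% of them were removed as doublets (Scrublet as built into scanpy 1.11.5, expected rate 6%). Cells were clustered with the Leiden method (2000 variable genes, 30 components, 15 neighbours, resolution 1; igraph 0.11.9). A cluster was named from the marker list it scored highest on, with at least 3 markers detected and a minimum score. It stayed unnamed if led by cell cycle genes or if another class had more markers among its leading genes. Clusters under 0.5 of the library's median depth without a leading marker of their own stayed unnamed too. Cluster 26, of 8, 493 and 608 cells of FL_control, FL_IR and dHep_IR, scored highest as endothelial but was unnamed. Cluster 16, of 79, 0 and 1, scored highest as Kupffer and was unnamed. Control and irradiated cells of a class partly lie in different clusters, and names may differ from those of the study. UMIs were summed per library and class and divided by the class total. Ratios have a prior count of 0.5 in the log2 value and none in the fold, and exact conditional 95% intervals. UMI counting still leaves differences between animals outside these intervals. Genes needed at least 20 UMIs over the 2 libraries. The interval code was tested on simulated data. Motifs were searched in the window with the most upstream start of each gene.

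All 40 genes were accounted for. Those given in full were at least 2-fold apart with an interval excluding no difference in a class, led by the 3 highest and 3 lowest per class and comparison, plus the genes with the most UMIs of each group, and from the wider list up to 3 per direction and class. Other members are given by value, whatever their ratio. The genes and lists were chosen with earlier results of these data known. Alternatives were TMM factors (edgeR 4.0.16), other UMI minima, doublets kept, a stricter cell filter, means of per-cell CPM, resolution 2 and cycling cells removed. After the data were seen, removal of shared barcodes, of dendritic-like cells, and a shallow endothelial cluster counted as endothelial-like were added.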

Additional observations from a re-analysis of the deposited data

Results flagged for a closer look

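Nbn lay in opposite directions between classes under irradiation. Its log2 ratio of FL_IR to FL_control was -1.16 in endothelial-like cells (189 against 549 UMIs), -1.23 in monocyte-like cells (26 against 29) and 1.46 in T-like cells (15 against 32), and each counting interval excluded no difference. In the other irradiated library, dHep_IR, the T-like value against FL_control was 0.23 and the endothelial-like value -1.21. With 1 library per group the difference between classes was not tested.

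Ercc5 differed in direction between classes when the irradiated libraries were set against each other. Its log2 ratio of dHep_IR to FL_IR was -1.07 in Kupffer-like cells (37 against 72 UMIs) and 1.61 in T-like cells (43 against 6). That difference was not tested either.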

How the results depend on the processing

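In FL_IR against FL_control, the median over the repair genes stayed below 0 under every alternative run in 4 classes, and changed sign in neutrophil-like cells, where it was -0.51 and became 0.33 with TMM factors, 0.31 with a minimum of 100 UMIs and -1.14 with no minimum. In endothelial-like cells it moved from -0.44 to -0.33 with a minimum of 100 UMIs and to -0.30 without cycling cells. Counts of genes at least 2-fold apart were less stable. They were 9, 8, 9, 13 and 6 in endothelial-, Kupffer-, monocyte-, neutrophil- and T-like cells for FL_IR against FL_control, and 0, 5, 3, 1 and 6 for dHep_IR against FL_IR. With at least 100 UMIs, FL_IR against FL_control gave 3, 1, 4 and 2 for the Kupffer-, monocyte-, neutrophil- and T-like classes, and dHep_IR against FL_IR gave 1, 1, 0 and 1. With no minimum, the first comparison gave 18, 25 and 11 for the monocyte-, neutrophil- and T-like classes, and the second gave 3, 8, 5, 6 and 13 for all 5 classes in the order above. TMM factors gave 7 in neutrophil-like cells in the first, of 22 genes (all genes 23.2% higher and 15.2% lower). In the second they gave 1 in Kupffer-like cells, of 30 genes (all genes 4.18% higher and 4.08% lower). Resolution 2 gave 5 in Kupffer-like cells in the first, and 1, 2 and 3 for the endothelial-, Kupffer- and T-like classes in the second. For the second comparison alone, keeping doublets gave 1, 2, 0 and 3 for the endothelial-, Kupffer-, neutrophil- and T-like classes, the stricter cell filter gave 3 in Kupffer-like cells, per-cell CPM gave 1 in endothelial-like and 8 in Kupffer-like cells, and removal of cycling cells gave 1, 2, 0 and 1 for the same 4 classes. The higher and lower minimum changed how many genes entered, and for the other alternatives the cause was not tested. The share of all genes at least 2-fold apart was not computed for alternatives other than TMM factors. These counts therefore describe the processing and are not results about the repair genes.

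Some directions reversed. Chek1 in endothelial-like cells turned to 0.51 without cycling cells. In monocyte-like cells Rif1 turned to 0.10 and Xpa to -0.000945, both at resolution 2 and without dendritic-like cells. Rbbp8 in neutrophil-like cells turned to 0.0524 with TMM factors. The end-joining median of dHep_IR against FL_IR in endothelial-like cells turned to 0.0398 with per-cell CPM. For dHep_IR against FL_control, Lig1 in endothelial-like cells turned to 0.00905 without cycling cells, Ogg1 in Kupffer-like cells to 0.0679 with per-cell CPM, and in monocyte-like cells Lig1 to 0.57 and H2afx to 0.11 at resolution 2 and without dendritic-like cells. The cause was not tested. No paired analysis was possible because each group has 1 library. Leaving out a replicate was not possible for the same reason.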

Other observations

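NK or ILC1-like cells had too few cells in FL_IR (34) for a comparison, but 213 in FL_control and 77 in dHep_IR. Of 20 repair genes past the minimum there, 1 was at least 2-fold higher in dHep_IR (3.53% of all genes) and 2 at least 2-fold lower (15.9%). Apex1, the abasic site nuclease, was at 12.8 CPM in FL_control (15 UMIs) and 30.2 CPM in dHep_IR (13 UMIs), 2.36-fold higher (interval 1.03 to 5.32). Atm and Mdc1 were the lower ones, on 4 against 26 and 3 against 22 UMIs, with intervals that included no difference. B-like cells, which held the highest Parp1 level, numbered 1416 in FL_control, 21 in FL_IR and 11 in dHep_IR, so no repair gene ratio was formed for them. Cholangiocyte-like cells numbered 55 in FL_control and 86 in dHep_IR, of which 23 and 28 carried a barcode found in another library. Of 26 repair genes past the minimum, none was at least 2-fold higher in dHep_IR (5.0% of all genes) and 7 at least 2-fold lower (16.0%), with a median of -0.54. Without the shared barcodes FL_control was left with under 50 cells, so no ratio was formed.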
